A study of Mus musculus with 21 samples.

Results

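In a bisulfite library of DNA from mouse sperm nucleosomes, 15.6% of all CpG reads fell on 3 short stretches of the genome that hold 0.00221% of the listed CpGs. They are a 10 kb window on chromosome 2 from 98500001 to 98510000, a 40 kb window at the start of the assembled chromosome 9 from 3000001 to 3040000, and a 10 kb window farther along chromosome 9 from 35110001 to 35120000 (mm9), called here the chromosome 2, the proximal and the distal chromosome 9 windows. All listed CpGs with a start inside them were taken, with no limit on reads. This gave 343 CpGs of 15544856 in the library, of which 77, 206 and 60 lie in the windows in the order given. The windows were chosen by position for the very high read counts of CpGs inside them, so their reads are described here and carry no test.

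The series holds 21 libraries of chromatin, RNA and bisulfite-converted DNA from C57BL/6 mouse sperm and round spermatids. The library used here is 1 of them: DNA associated with nucleosomes in sperm, treated with bisulfite, which turns unmethylated cytosine into a base read as thymine and leaves methylated cytosine as it is. Per the labels' protocols the spermatozoa came from C57BL/6J mice by swim-up, a step that enriches motile cells, and mononucleosomes were released with micrococcal nuclease, an enzyme that cuts the DNA between nucleosomes. In sperm most histones are replaced by protamines, so nucleosomal DNA stands for the part of the genome that keeps them. The labels give neither the number nor the age of these mice and name no second bisulfite library, and 20 samples were not analysed here.

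Mouse centromeres are built on 2 families of tandem repeats. The major satellite, with a unit of 234 bp, forms the heterochromatin beside the centromere. The minor satellite, with a unit of 120 bp, carries the binding site of the centromere protein CENP-B. Both are present in very many near-identical copies that the genome assembly leaves out almost entirely, and satellite DNA is known to be less methylated in mouse germ cells than in somatic tissues. The sequence of mm9 was not used here, so the windows are described by the positions of their CpGs, and whether they hold these satellites by sequence was not tested.

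Reads differed between the windows both in level and in how many CpGs held them. In the chromosome 2 window a CpG had 1 read at the lowest, 21419 at the median and 1958634 at the highest. In the proximal chromosome 9 window these values were 1, 933 and 47254 reads, and in the distal chromosome 9 window 1, 3 and 193953. Autosomal CpGs of up to 19 reads, the comparison set (15107014 CpGs), had a median of 3 reads, so the distal window matched it at the median and departed from it in a few CpGs. More than 19 reads fell on 63 of 77, 178 of 206 and 9 of 60 CpGs in the 3 windows, against 0.0815% of the autosomal listed CpGs. Together these 250 CpGs carried 89.5% of the library's reads on CpGs above 19 reads. All 16 CpGs of the library with more than 100000 reads lay in the windows, 14 in that of chromosome 2 and 2 in the distal one.

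**Figure D1:**
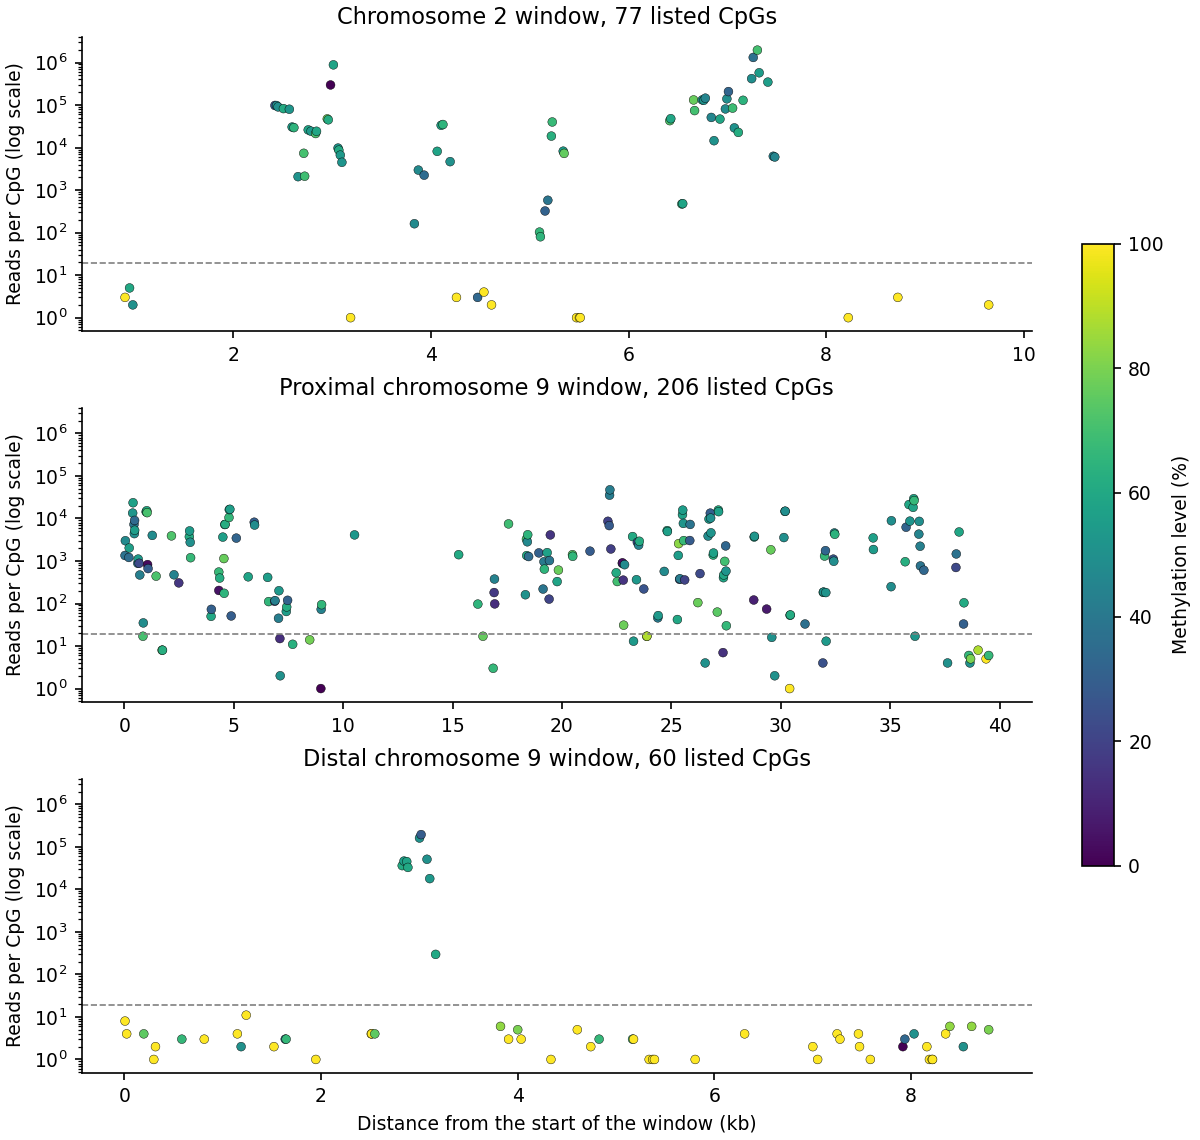
Reads per listed CpG (log scale) against the distance from the start of each window in kb; each point is 1 CpG, its colour is the methylation level and the dashed line marks 19 reads. The chromosome 2 and distal chromosome 9 windows have sharp clusters of deep CpGs between CpGs of a few reads, whereas deep CpGs run through most of the proximal window.

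The deep CpGs had sharp borders. On chromosome 2 those above 19 reads spanned 5062 bp, from 98502421 to 98507482, and in the distal chromosome 9 window 341 bp, from 35112827 to 35113167. In the proximal chromosome 9 window they spanned 38344 bp, from 3000031 to 3038374, which is nearly the whole window, and no listed CpG of chromosome 9 lies before it. The CpGs at the other window edges had few reads: the first and last inside had 3 and 2 reads on chromosome 2 and 8 and 5 in the distal window, the last in the proximal window had 6, and the nearest outside had between 1 and 3. In the 10 kb on either side, mean reads per listed CpG lay between 2.35 and 5.0, with pooled levels from 76.6% to 90.2%.

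A few CpGs held most of the reads. On chromosome 2 the 10 deepest CpGs carried 76.5% of the window's reads, and the CpG at 98507306 alone 23.8%, with 1958634 reads. It was followed by 98507264 with 1318253 reads and 98503013 with 882871. The 1 kb from 98507001 to 98508000 held 62.1% of that window's reads on 12 CpGs. In the distal chromosome 9 window 2 neighbours 16 bp apart, 35113019 with 193953 reads and 35113003 with 161138, led the count, ahead of 35113079 with 51028. Reads were more evenly spread in the proximal window, where the 10 deepest CpGs held 33.9%. Its 3 deepest were 3022192 with 47254 reads, 3022177 with 35301 and 3036078 with 29143.

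Depth also jumped between close neighbours. Among pairs of neighbouring CpGs at most 20 bp apart and both above 19 reads, 29 of 87 in the windows differed more than 2-fold in reads, against 1.22% of 6806 such pairs elsewhere on the autosomes. The share was 24 of 60 in the proximal window and 5 of 24 on chromosome 2. Depth was not matched. Autosomal CpGs above 19 reads outside the windows had a median of 25 reads, near the minimum, which leaves less room for such differences. The widest step in the windows, 35.5-fold, was in the proximal one; elsewhere on the autosomes the widest was 53.4-fold. How reads that match several copies were placed is not given in the sources used here. Reads from other copies in the genome and reads from the listed place itself therefore cannot be told apart, and the reads per CpG are no measure of how many nucleosomes these places retain.

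Methylation in the windows was intermediate. The pooled level, methylated reads over all reads, was 53.6% on chromosome 2 (95% Wilson interval 53.5 to 53.6, 8220887 reads), 51.9% in the proximal window (51.8 to 52.0, 734545 reads) and 45.8% in the distal one (45.6 to 45.9, 584678 reads). Autosomal CpGs of up to 19 reads had a pooled level of 73.9%, and those among them with 3 to 5 listed CpGs within 100 bp on each side, the range that holds the medians of the chromosome 2 and proximal windows (4 and 3) but not that of the distal window (2), had 84.5%. These intervals cover counting error only, since reads are not independent molecules, and there is 1 library. A copy with thymine where the assembly has the cytosine would also be counted as unmethylated, and sequence differences between copies were not tested. Levels in the windows, here and below, are therefore shares of reads counted as methylated. With each CpG of 10 or more reads counted once, the windows lay above the comparison set, but not above its CpGs with 3 to 5 listed CpGs nearby. This read minimum also changed the comparison set, to 290700 of its 15107014 CpGs. The change of order therefore cannot be ascribed to the way of counting alone. The mean level was 55.0% ± 13.3 (SD, 63 CpGs), 49.5% ± 17.5 (189 CpGs) and 57.9% ± 17.5 (10 CpGs) in the windows, above 45.0% ± 42.8 for the autosomal CpGs of 10 to 19 reads and below 78.1% ± 28.6 for the 73929 of them with 3 to 5 listed CpGs within 100 bp.

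Comparison CpGs of 10 to 19 reads were mostly of low or high level, and the windows had few of either. Of the 262 window CpGs read at least 10 times, 243 were between 20% and 80% methylated, namely 62 of 63, 172 of 189 and 9 of 10. The same range held 19.2% of the autosomal CpGs of 10 to 19 reads, where 45.8% lay below it and 34.9% above. Among the 73929 of them with 3 to 5 listed CpGs within 100 bp it held 28.3%, with 7.68% below and 64.0% above. Depth was not matched in this comparison. Autosomal CpGs above 19 reads outside the windows, with a median of 25 reads, were intermediate in 17.3% of 12069 cases, and their pooled level was 30.1%. The 57 autosomal CpGs above 1000 reads outside the windows, nearest in depth to the 163 such CpGs inside them, were intermediate in 47.4% of cases, with a pooled level of 40.5%. Of the 227 window CpGs with 100 or more reads, 158 had levels between 40% and 70%. Of the autosomal CpGs of 10 to 19 reads, 2.11% lay in the class of 40 to 50%. The classes of 50 to 60% and 60 to 70% held 2.56% and 2.92% of them, again without matched depth.

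**Figure D2:**
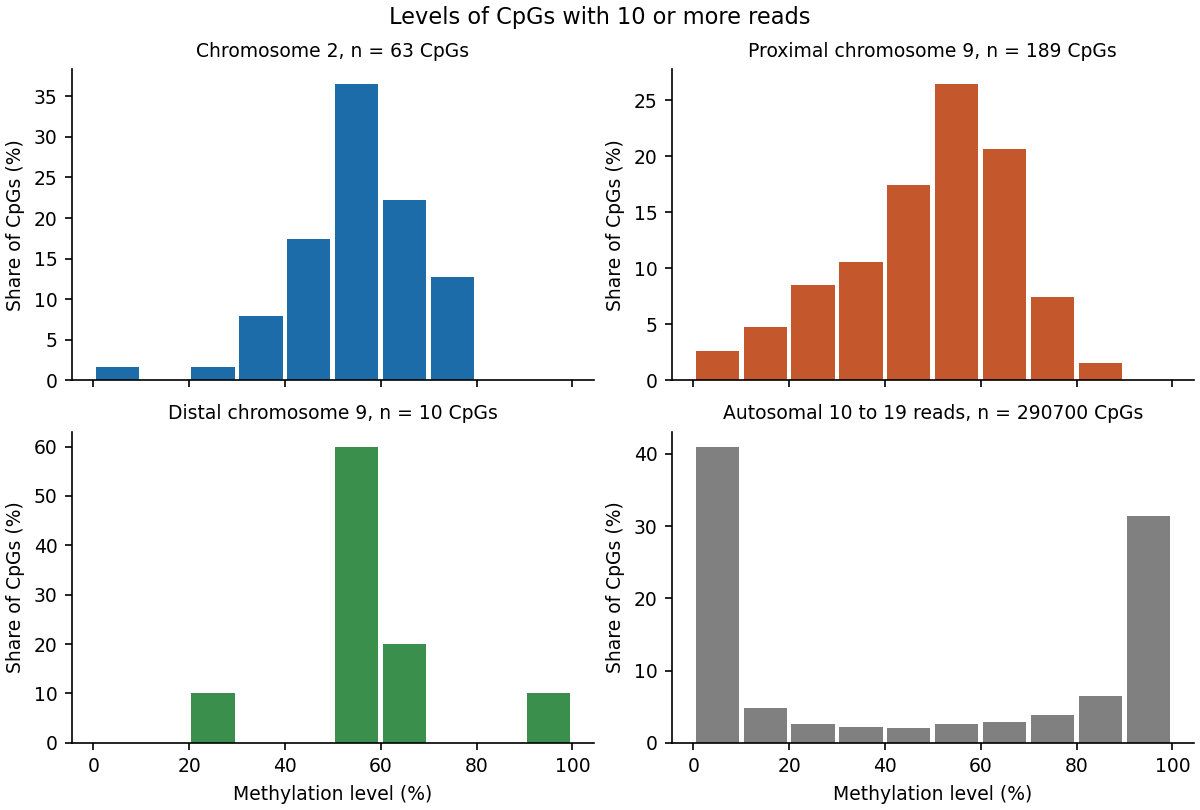
Share of CpGs (%) in classes of 10 percentage points of methylation level, for CpGs with 10 or more reads in each window and for autosomal CpGs of 10 to 19 reads; the y axes differ in range. In each window the fullest class is 50 to 60%, whereas the autosomal CpGs pile up in the lowest and highest classes.

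The shallow CpGs of the same windows were more methylated. Pooled over CpGs of up to 19 reads, the level was 84.4% on chromosome 2 (Wilson 68.2 to 93.1, 32 reads on 14 CpGs) and 86.8% in the distal chromosome 9 window (80.7 to 91.2, 159 reads on 51 CpGs). These values lie near those of the flanks. In the proximal window, where shallow CpGs are interspersed with deep ones, it was 62.9% (56.7 to 68.7, 245 reads on 28 CpGs). Among the CpGs above 19 reads, level and reads had a Spearman correlation of -0.06 on chromosome 2 (63 CpGs) and 0.104 in the proximal window (178 CpGs). It was -0.75 over the 9 CpGs of the distal window, which may share reads with their neighbours.

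Single deep CpGs departed widely from their surroundings. The lowest level was at 98502984 on chromosome 2, where 190 of 296980 reads were methylated, 0.064% (Wilson 0.0555 to 0.0737). The CpG 23 bp before it, at 98502961, had 61.3%, and that at 98503013, the third deepest of the library, 58.1%. In the proximal window 4 CpGs with 100 or more reads were under 10%, singled out here after their values were seen: 3001062 with 2.55% of 823 reads, 3022765 with 3.87% of 905, 3004319 with 4.93% of 203 and 3028766 with 9.09% of 121. Those at 3004319 and 3022765 lie 2 and 3 bp behind a CpG with 66.9% and 57.8%. With the CpG on chromosome 2, these are 5 of the 227 window CpGs with 100 or more reads. Of the autosomal CpGs of 10 to 19 reads, 41.0% were under 10%, with depth not matched. Whether copies differ in sequence at the low CpGs of the windows was not tested. The highest levels among CpGs of 100 or more reads were 77.9% at 98502951 on chromosome 2, 82.8% at 3025334 in the proximal window and 61.3% at 35112827 in the distal one, whose lowest was 28.9% at 35113019.

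The spacing of CpGs repeated itself. In the proximal chromosome 9 window the distance most often found between 2 listed CpGs, from 50 to 1000 bp, was 234 bp, the unit length of the major satellite, with 27 pairs, where the median distance had 1 pair. This is 0.131 pairs per listed CpG, against 0.0143 at the same distance in the autosomal comparison set. The double distance, 468 bp, had 12 pairs there, but 0 on chromosome 2 and 1 in the distal window. On chromosome 2 the leading distance was 88 bp with 8 pairs, and 234, 120 and 251 bp followed with 7 each. In the distal window 234 bp had 3 pairs and shared the top with 4 other distances, so the spacing alone shows no period there. Neighbouring CpGs were a median of 41, 43 and 93 bp apart in the 3 windows, against 60 bp in the comparison set.

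**Figure D3:**
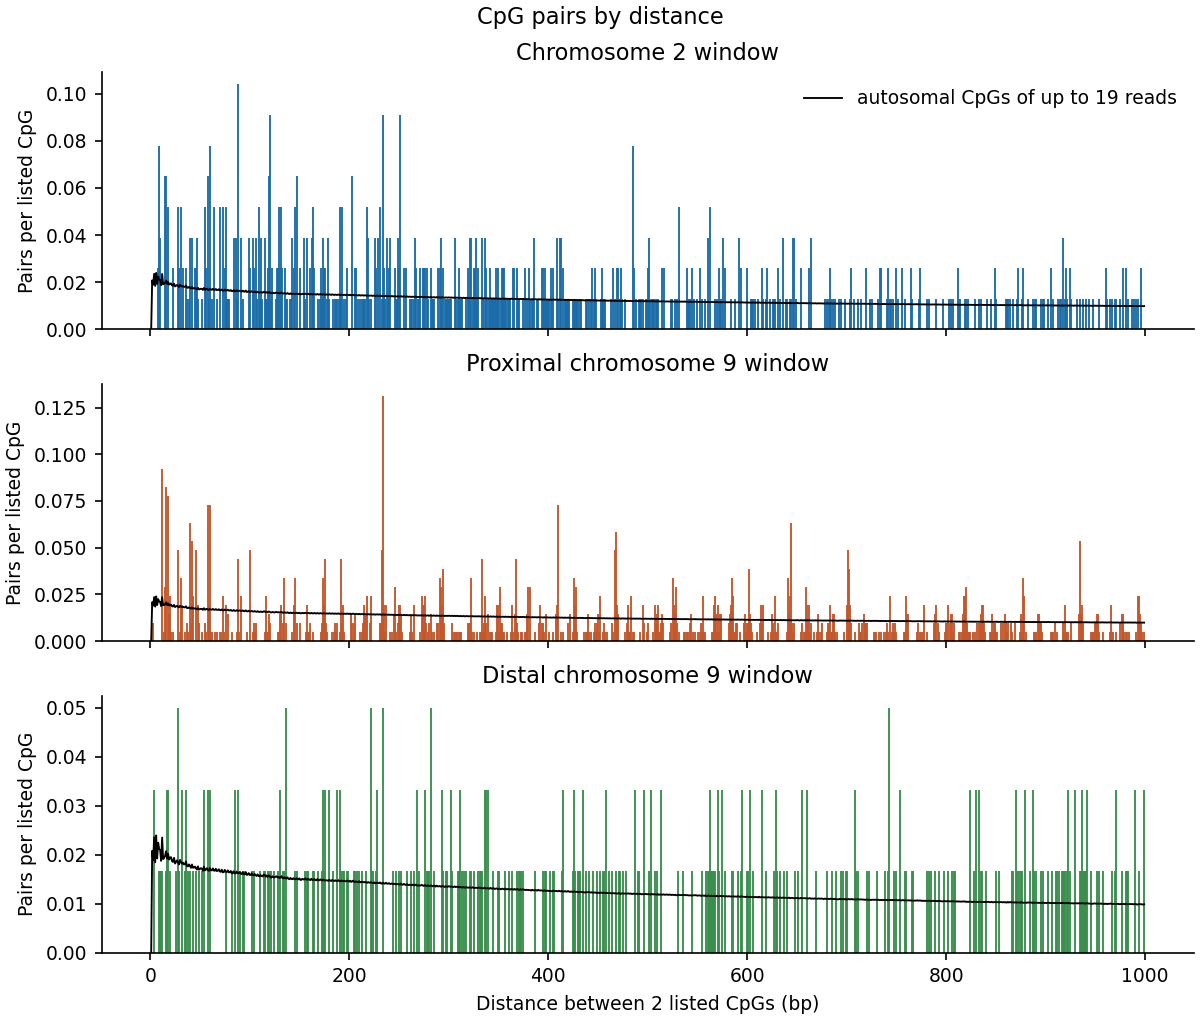
Number of CpG pairs per listed CpG (y) at each distance up to 1000 bp (x), with bars for each window and a black line for autosomal CpGs of up to 19 reads. The proximal chromosome 9 window has its tallest bar at 234 bp, whereas the autosomal line has no peak beyond the shortest distances; the y axes differ in range between panels.

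To compare copies of the unit, the CpGs above 19 reads were placed on a repeating unit of 234 bp learned from the proximal window, by position alone, so that neither reads nor levels entered. The unit has 10 positions that recur, at 0, 16, 30, 76, 87, 115, 134, 146, 175 and 192 bp, counted from the position that holds the most CpGs. Of 250 CpGs tried, 174 were placed and 76 were not; the other 93 members were not tried for lack of reads. The proximal window had 136 of 178 placed, in 1 orientation. Since the unit was learned from these same CpGs in that orientation alone, this share and orientation are partly set by the training. The distal window had 9 of 9 placed, all in the reversed orientation. The chromosome 2 window had 29 of 63 placed. In the orientation of the proximal window were 11, in separate groups from 98502421 to 98502613 and from 98504064 to 98504195, with no placed CpG between. The other 18, from 98506763 to 98507482, were reversed, so that the window holds stretches in both directions. The reversed stretch includes the 2 deepest CpGs of the library.

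Mean levels differed between positions of the unit, and position 0 was low in each window. Position 0 had the lowest mean level of the positions that more than 1 window holds. Its CpGs had 30.9% ± 10.5 in the proximal window (SD over 26 CpGs, 6.76% to 52.8%) and 28.9% at the only one in the distal window. On chromosome 2 the 4 CpGs at this position ranged from 26.5% to 45.6%, with a mean of 35.3%. Position 192 had among the highest mean levels in each window, with 61.4% ± 11.5 (18 CpGs) in the proximal window, 67.0% ± 2.75 (4 CpGs) on chromosome 2 and 61.3% (1 CpG) in the distal window. At position 134 the values were 62.5% ± 7.89 (23 CpGs), 60.1% ± 2.75 (2 CpGs) and 60.0% (1 CpG), in the same order. In the proximal window the ranges of these positions overlap with those of their neighbours on the unit. On chromosome 2, with 2 to 5 CpGs per position, position 192 (64.6% to 70.2%) overlapped neither with position 175 (46.0% to 57.4%) nor with position 0. Position 134 (58.2% to 62.1%) did not overlap there with position 146 (50.5% to 52.3%) but did with position 87, and position 0 overlapped with position 16.

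Most other shared positions had intermediate means. Position 16 had 51.2% ± 10.9 in the proximal window (17 CpGs), 48.4% ± 2.14 on chromosome 2 (4 CpGs) and 51.0% in the distal window. Position 146 had 57.5% ± 4.58 (16 CpGs), 51.4% ± 1.27 (2 CpGs) and 55.7% ± 3.42 (2 CpGs), and position 175 had 44.1% ± 13.4 (15 CpGs), 52.9% ± 4.50 (5 CpGs) and 53.0% ± 4.11 (2 CpGs). The widest gap between window means was 9.41 percentage points, at position 87, with 50.7% ± 20.4 over 6 CpGs in the proximal window against 60.1% at 1 CpG of 296 reads in the distal one. Over the 8 positions shared by the chromosome 2 and proximal windows the mean levels had a Pearson correlation of 0.834, a Spearman correlation of 0.714 and a median difference of 5.02 points. Over the 7 shared by the distal with the other windows the Pearson correlation was 0.892 with the proximal window and 0.935 with chromosome 2, and the Spearman correlation 0.643 and 0.929. The points share the library and possibly reads, since a read of 1 copy can match others.

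**Figure D4:**
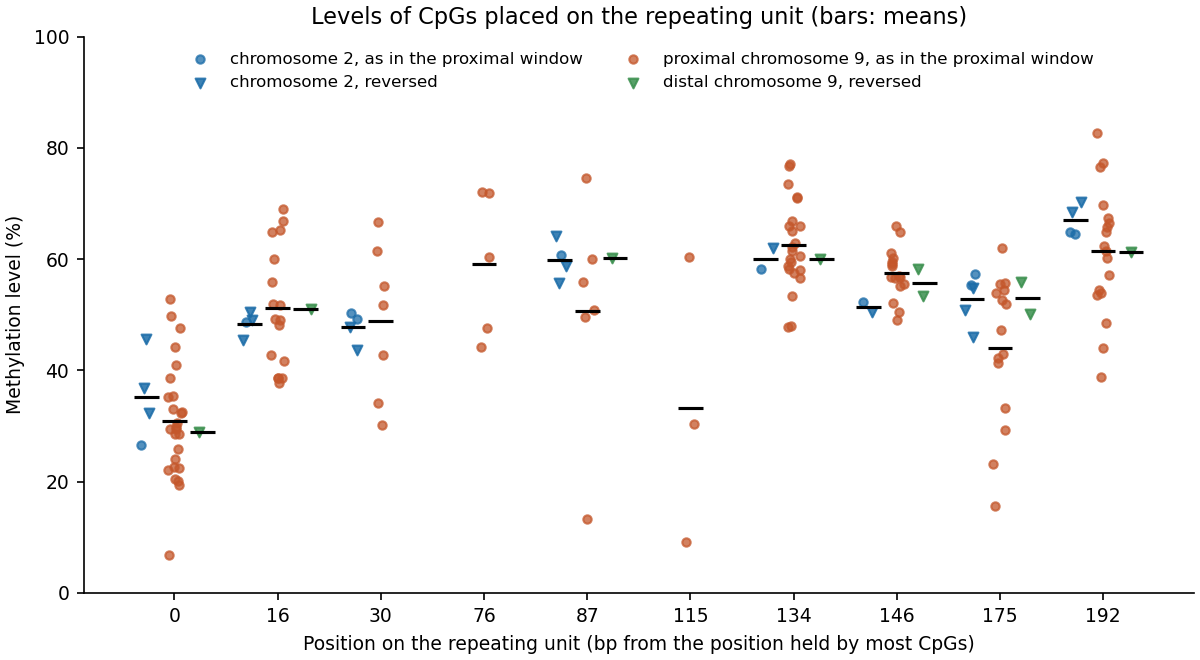
Methylation level (%) of each placed CpG against its position on the 234 bp unit, counted in bp from the position held by the most CpGs; colours are windows, triangles are CpGs in reversed orientation and black bars are means. Position 0 lies lowest among the positions shared by windows, and positions 134 and 192 lie high in all 3 windows.

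Single copies were compared at the 4 pairs of positions that follow each other in 10 or more copies. In 17 of 17 copies with both CpGs placed side by side, position 0 was less methylated than position 16, by 4.9 to 24.2 points (13 in the proximal window, 3 on chromosome 2 and 1 in the distal window). Position 192 was above position 175 in 13 of 13 copies, by 4.4 to 27.3 points. From position 192 to the following position 0, 42 bp on in most copies, the level dropped in 9 of 10 copies, with a median difference of -33.7 points. Position 146 was below position 134 in 12 of 14. On chromosome 2 the mirrored stretch shows this directly: along the chromosome the level was 36.8% at 98507264 and 70.2% at 98507306, 42 bp on, the reverse of the order in the proximal window, where 3000399 had 57.1% and 3000441, 42 bp on, had 38.6%. Between the 2 orientations on chromosome 2 the mean level differed most at position 0, with 26.5% at 1 CpG against 38.2% over 3 reversed CpGs. The copies counted here possibly share reads, since a read of 1 copy can match others, so they are not independent.

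The positions accounted for 52.7% of the variance of levels among the 136 placed CpGs of the proximal window. For the 29 on chromosome 2 this share was 86.7%, over 8 positions of 2 to 5 CpGs each, where few CpGs per position raise it. CpGs that were not placed had a mean level of 43.4% ± 18.97 (42 CpGs) in the proximal window, against 50.3% ± 15.99 for those placed, and 57.2% ± 15.2 (34 CpGs) on chromosome 2, against 52.5% ± 10.2.

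CpGs 1 unit length apart were compared by distance alone, whether or not they had been placed. Among pairs of CpGs of 10 or more reads that lay 233 to 235 bp apart in the proximal window, levels had a Pearson correlation of 0.57 (39 pairs) and log10 reads one of -0.0054. With 100 or more reads the former was 0.756 (28 pairs). Pairs at other distances within 50 bp of the period gave -0.063 for levels (108 pairs). On chromosome 2, with 10 pairs, the correlations were 0.374 for levels and -0.14 for reads. In the distal window 2 pairs were too few. Pairs can share a CpG, so they are not independent.

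The chromosome 2 window holds a further pattern beside the 234 bp unit. Among its 34 CpGs above 19 reads that were not placed, the leading distance was 120 bp, the unit length of the minor satellite, with 7 pairs or 0.206 per CpG. The next distance, 129 bp, had 4 pairs. The autosomal comparison set had 0.0158 pairs per CpG at 120 bp, a distance chosen here for its count. Neighbouring pairs, such as those that start at 98502713 and 98502722, are not separate repeats of the distance. The 7 pairs lay between 98502713 and 98506670, and the levels within a pair differed by 0.682 to 11.8 points with a median of 7.91. Reads within a pair could be far apart, as with 80 at 98505109 and 40014 at 98505229, whose levels were 65.0% and 67.5%.

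This second pattern also occurs in both directions. From 98502713 the CpGs follow each other at 9, 36, 28, 47 and 9 bp, and from 98505229 backwards at 9, 36, 28, 47 and 9 bp again. In the first copy the levels were 70.5%, 69.5%, 57.8%, 53.7%, 71.2% and 59.3%. In the mirrored copy, read in the same sense, they were 67.5%, 63.0%, 38.8%, 31.0%, 65.0% and 66.0%. CpGs 3 and 4 of the 6 were the lowest in both, though the 6 CpGs of the mirrored copy had between 80 and 40014 reads and those of the first between 2121 and 26069. This pair of stretches was the longest mirrored match among the CpGs that were not placed. Among 10 pairs of such CpGs that lie 8 to 10 bp apart, the first along the chromosome was more methylated in 7 and the second in 3. These 3 start at 98503060, 98505220 and 98505340, of which the second lies in the mirrored copy. The other close pair of that copy, at 98505100 and 98505109, had the first higher, with 66.0% against 65.0%.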

How the data were processed

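The deposited table lists for each CpG its chromosome and start with 2 counts, total and methylated reads, per the file headers; the authors' table shows no normalization of these raw counts. Bowtie and mm9 are named in the submitters' processing notes. Alignment settings, duplicate handling, conversion and the placing of reads that match several copies are not stated in these sources. CpGs without reads are not listed, and the table does not say whether positions count from 0 or 1. One sample entered, so nothing was tested between groups and no p-value is given; the windows, the lists and the comparisons were chosen with earlier results of these data known.

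Levels are methylated over total reads; single CpGs needed 10 reads, and named extremes 100. Named CpGs are the 3 deepest per window and those of extreme level, named bins the deepest 1 kb per window. The period was the distance from 50 to 1000 bp with the most CpG pairs. CpGs above 19 reads were placed by a hidden Markov model over offset and orientation of the unit (tolerance 2 bp, posterior at least 0.9, runs of 3 or more CpGs, unit positions held by at least 5 CpGs in training, before the posterior and run limits), trained on the proximal window in 1 orientation and tested on simulated arrays. Correlations are descriptions. Python 3.11.15, numpy 2.4.6, pandas 2.3.3, scipy 1.17.1 and matplotlib 3.10.9 were used. Alternatives were other read minimums, leaving out the deepest CpGs or bin, other comparison sets, and other period and placement settings.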

Additional observations from a re-analysis of the deposited data

How the results depend on the processing

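No paired analysis was possible because the data come from 1 library. Of 69 alternative values, 29 were classed as staying within the interval or range set for the main value and 40 as moving beyond it. Counting intervals at this depth are narrow. All values from changed placement settings were classed as staying. They include numbers of placed CpGs that clearly changed, in the proximal window from 136 to 98, 162 and 113. The 40 all came from the other alternatives, so the tally makes the results look more stable than those alternatives show. The pooled level on chromosome 2 (53.6%) became 55.0%, 55.1%, 55.0% and 54.8% as a mean of CpG levels at a minimum of 10, 5, 20 and 100 reads, 48.4% and 57.7% without the deepest CpG and the 10 deepest, 84.4% over CpGs of up to 19 reads and 50.9% without the deepest 1 kb bin. In the same order the proximal window (51.9%) gave 49.5%, 50.3%, 48.7%, 48.6%, 52.6%, 50.9%, 62.9% and 54.0%, and the distal window (45.8%) 57.9%, 69.9%, 53.2%, 53.2%, 54.1%, 85.8%, 86.8% and 58.6%; its pooled level thus rests on few CpGs. The autosomal level (73.9%) was 73.1% with no limit on reads, 30.1% above 19 reads, 84.5% with 3 to 5 listed CpGs within 100 bp, 73.3% on chromosomes 2 and 9, and 45.0% as a mean over CpGs of 10 or more reads. Mean reads per listed CpG were 106765, 3566 and 9745 in the 3 windows, with medians of 21419, 933 and 3. Without the 10 deepest CpGs the mean was 28826 on chromosome 2 and 2.96 in the distal window, and without the deepest bin 47973 and 3026. With pairs summed over 3 neighbouring distances, the leading distance became 119 bp on chromosome 2 and 175 bp in the distal window, which had 60 bp among CpGs of 100 or more reads; in the proximal window it was 234 bp under each setting tried. The correlation of levels 1 period apart there rose from 0.57 to 0.756 at 100 or more reads. The settings of the placement were varied after seeing the data: between 98 and 162 CpGs were placed in the proximal window, and the level at position 0 there lay between 29.1% and 32.2%; on chromosome 2 it lay between 35.3% (4 CpGs) and 43.1% (6 CpGs).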
